A study of Mus musculus with 6 samples.

Results

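The transcriptional output of ERK signalling was examined in the ribosome-bound mRNA of adult mouse dentate gyrus through 10 genes, the Sprouty genes Spry1, Spry2 and Spry4, the Sprouty-related genes Spred1 and Spred2, the phosphatase genes Dusp4 and Dusp6, and the ETS factor genes Etv1, Etv4 and Etv5. They were listed by name as feedback inhibitors and targets of ERK. All 10 were found among the 37620 genes counted, and all 10 passed the filter on low counts, which kept 15056 genes. The 6 samples were 3 from Gli1CreERT2:Rpl22HA f/+ mice that were Klf9 +/+ and 3 from mice of the same driver and tag that were Klf9 f/f, aged 2 to 3 months. Mice of both genotypes received tamoxifen at 250 mg/kg in 3 injections spaced 12 hr apart, and tissue was taken 4 days after the last. Each sample pooled 6 dentate gyri of 3 mice, so a p-value measures the spread between pools. In this assay, RiboTag, Cre puts an HA tag on the ribosomal protein Rpl22, and ribosomes are pulled down with an antibody to HA. Gli1CreERT2 recombines in radial glia-like neural stem cells (RGLs) and also in astrocytes, so the pull-down is not a pure RGL preparation. By their library names, replicates 1 and 2 of both genotypes belong to a library series numbered 22 and replicate 3 of both to a series numbered 32, and the question was whether ERK output moved between Klf9 f/f and Klf9 +/+ within each series.

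Growth factors such as EGF, the FGFs and BDNF bind receptor tyrosine kinases, which pass the signal through Ras, Raf and MEK to the kinase ERK. Active ERK raises the transcription of its own brakes, among them Sprouty and Spred proteins, which act at the level of Ras and Raf, and dual-specificity phosphatases, which remove the activating phosphates from ERK itself. It also raises the genes of the PEA3 group of ETS transcription factors, Etv1, Etv4 and Etv5. Because these mRNAs follow the pathway, their levels are widely read as a measure of ERK output, and FGF and EGF receptor signalling is known to support proliferation of neural stem cells. Klf9 is a zinc-finger transcription factor of the Sp/KLF family, which binds GC-rich boxes in promoters.

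Sequence upstream of the start site is given for 3 of the 10 genes, Etv5 because it was the member called between the genotypes, Spred2 because its fitted change was the most negative, and Dusp6 because its fitted change lay nearest to 0. Each run is the 250 bases before the annotated start, 5′ to 3′ on the strand of the gene, from RefSeq on the GRCm38.p6 build, which is a later build than the mm9 coordinates given elsewhere. The capitals mark the GC box GGGCGG read on either strand. The Etv5 window lies at chr16:22439571-22439820 on the minus strand, the Spred2 window at chr11:19924192-19924441 on the plus strand, and the Dusp6 window at chr10:99262981-99263230 on the plus strand.
Etv5: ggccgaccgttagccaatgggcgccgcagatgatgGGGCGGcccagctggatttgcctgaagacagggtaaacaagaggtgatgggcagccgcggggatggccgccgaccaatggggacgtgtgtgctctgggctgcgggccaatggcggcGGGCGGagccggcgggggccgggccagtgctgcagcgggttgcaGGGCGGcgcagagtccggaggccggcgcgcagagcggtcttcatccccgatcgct
Spred2: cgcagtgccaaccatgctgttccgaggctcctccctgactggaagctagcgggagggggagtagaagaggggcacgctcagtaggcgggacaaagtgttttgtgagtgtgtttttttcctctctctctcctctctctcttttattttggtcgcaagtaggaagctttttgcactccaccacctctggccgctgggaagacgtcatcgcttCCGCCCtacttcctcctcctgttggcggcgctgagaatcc
Dusp6: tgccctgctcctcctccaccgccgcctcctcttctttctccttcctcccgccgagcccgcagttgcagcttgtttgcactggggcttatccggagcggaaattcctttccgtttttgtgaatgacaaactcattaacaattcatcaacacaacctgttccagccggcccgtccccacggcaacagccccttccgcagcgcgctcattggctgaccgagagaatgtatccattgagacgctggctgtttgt
The printed window of Etv5 held 3 copies of GGGCGG and 71.2% G and C, that of Spred2 held 1 copy and 56.0% G and C, and that of Dusp6 held 0 copies and 56.4% G and C. Etv5 has another annotated start, whose window at chr16:22438369-22438618 held 0 copies of GGGCGG and 62.0% G and C. RefSeq windows were read for 7 of the 10 genes, with 9 windows in all since Etv1 and Etv5 have more than 1 start. GGGCGG was found in 4 of the 9 windows, against 32.7% of 32851 windows of the same length in the table. CACCC, the core of another KLF box, was found in 3 of the 9 windows, against 52.0%, and CCGGAAG, an ETS box, in 0 of the 9, against 6.91%. Each motif was searched on both strands, and no match overlapped a match of another motif. A match describes the letters of the window and is no evidence of binding.

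Depth ranged from 21594714 to 66343759 counts on genes per sample, with the samples of series 32 the lowest of their genotype. Klf9 lay at 139 to 204 CPM (counts scaled to library size, after TMM) in Klf9 +/+ samples and at 114 to 121 CPM in Klf9 f/f samples, with a log2 fold change of -0.59 (SE 0.15, adjusted p = 0.844 by edgeR's quasi-likelihood F-test and Benjamini-Hochberg adjustment, and 0.0199 to 1.00 over the alternatives). Gli1, which drives the Cre, lay at 2.92 to 9.62 CPM and Gfap at 1866 to 4026 CPM, and no listed marker of any cell type was at 0 in any sample. Summed over the list, 13 astrocyte markers lay at 13375 to 18304 CPM in Klf9 +/+ and 17741 to 20074 CPM in Klf9 f/f, and all 13 were fitted higher in Klf9 f/f, 4 of them past the call. The radial glia-like list lay at 4737 to 6023 CPM in Klf9 +/+ and 5584 to 7211 CPM in Klf9 f/f, with 10 of 12 genes higher. The vascular, meningeal and choroid plexus lists moved the other way, with 15 of 15 endothelial, 10 of 10 mural, 11 of 11 meningeal and 13 of 13 choroid plexus genes fitted lower in Klf9 f/f. In bulk samples, fewer cells of a type and less RNA per cell cannot be told apart.

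None of the 5 Sprouty and Spred genes passed the call between genotypes in edgeR's quasi-likelihood test, and none did in DESeq2. Spry1 (ENSMUSG00000037211, mm9 chromosome 3, 37538869 to 37543520, plus strand) encodes a membrane-associated inhibitor of receptor tyrosine kinase signalling. Given here and for every gene in the order of replicates 1, 2 and 3, the Klf9 +/+ samples lay at 14.1, 13.3 and 22.3 CPM and those of Klf9 f/f at 11.2, 14.0 and 14.3 CPM. The high value was the Klf9 +/+ sample of series 32, and the groups overlapped. The log2 fold change of Spry1 was -0.29 (SE 0.18, 95% interval -0.70 to 0.12).

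Spry2 (ENSMUSG00000022114, chromosome 14, 106291166 to 106296036, minus strand), the best known of the family, lay at 14.4, 10.1 and 15.5 CPM in Klf9 +/+, and in Klf9 f/f at 8.03, 8.55 and 16.6 CPM. Both Klf9 f/f samples of series 22 lay below both Klf9 +/+ samples of that series, whereas in series 32 the Klf9 f/f sample was slightly the higher. Spry2 had a log2 fold change of -0.35 (SE 0.21, interval -0.83 to 0.14). Spry4 (ENSMUSG00000024427, 38745922 to 38760922, minus strand) lay at 2.81, 1.69 and 6.34 CPM in Klf9 +/+, and in Klf9 f/f at 3.08, 1.65 and 4.54 CPM. Its 2 highest values were the samples of series 32, one of each genotype, and its lowest count, 82, has an exact Poisson 95% interval of 65.2 to 102 that covers counting error only. Spry4 had a log2 fold change of -0.11 (SE 0.34, interval -0.86 to 0.65), the widest interval of the Sprouty genes.

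Spred1 and Spred2 encode membrane-associated proteins that bring the Ras inhibitor neurofibromin to Ras. Spred1 (ENSMUSG00000027351, chromosome 2, 116947110 to 117008015, plus strand) lay at 62.1, 71.4 and 99.1 CPM in Klf9 +/+, and in Klf9 f/f at 91.4, 62.6 and 128 CPM. In each series a Klf9 f/f sample was the highest, and in series 22 the other Klf9 f/f sample lay between the Klf9 +/+ samples. For Spred1 it was 0.26 on the log2 scale (SE 0.16, interval -0.11 to 0.63), and without Klf9 f/f replicate 2 it passed the call at 0.42.

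Spred2 (ENSMUSG00000045671, chromosome 11, 19824378 to 19924029, plus strand) had the most negative fitted change of the 10. It lay at 20.8, 17.4 and 20.6 CPM in Klf9 +/+, and in Klf9 f/f at 10.5, 11.9 and 23.2 CPM. The Klf9 +/+ samples were close together, whereas the Klf9 f/f samples split by series into low values in series 22 and the highest of all in series 32. The log2 fold change was -0.46 (SE 0.21, interval -0.95 to 0.02). Spred2 passed the call in series 22 alone at -0.78. Leaving out Klf9 +/+ replicate 3 or Klf9 f/f replicate 3 repeats that comparison, and gave -0.78 and -0.77. The series term then fits the remaining sample of series 32, so only series 22 informs the genotype difference.

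Dusp4 and Dusp6 encode phosphatases of ERK, the first in the nucleus and the second in the cytoplasm. Dusp4 (ENSMUSG00000031530, chromosome 8, 35870351 to 35882948, plus strand) lay at 16.1, 38.8 and 29.2 CPM in Klf9 +/+, and in Klf9 f/f at 15.2, 20.7 and 30.1 CPM. The spread within a genotype was larger than the difference between genotypes, since the Klf9 +/+ samples of series 22 alone differed by 1.27 on the log2 scale. Dusp4 had a log2 fold change of -0.40 (SE 0.31, interval -1.09 to 0.29), and it was -0.64 and past the call without Klf9 +/+ replicate 1 and 0.11 without Klf9 +/+ replicate 2. Klf9 +/+ replicate 2, the sample highest in Dusp4, was also the highest in the granule neuron markers at 1985 CPM summed. The other samples of both genotypes lay at 1288 to 1509 CPM. Neurod1 stood at 667 CPM in Klf9 +/+ replicate 2 and at 110 to 318 CPM in the other samples. Prox1 and Rbfox3 also peaked in that sample, Dsp and C1ql2 were at their lowest there, and Calb1, Snap25, Syt1 and Camk2a peaked elsewhere. The part of those markers in the Dusp4 value was not tested.

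Dusp6 (ENSMUSG00000019960, chromosome 10, 98725865 to 98730122, plus strand), among the most direct readouts of FGF and ERK signalling, stayed within 14.1 to 19.0 CPM over the 6 samples. It lay at 16.9, 14.1 and 18.9 CPM in Klf9 +/+, and in Klf9 f/f at 19.0, 16.7 and 16.0 CPM, with the groups fully interleaved. Its log2 fold change was 0.06 (SE 0.17, interval -0.32 to 0.44), a narrower interval than that of Dusp4.

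Among the PEA3 factors, Etv5 was the member called, Etv4 was fitted higher with a wider error, and Etv1 was not called. Etv1 (ENSMUSG00000004151, chromosome 12, 39505967 to 39594802, plus strand) lay at 26.9, 19.4 and 18.5 CPM in Klf9 +/+, and in Klf9 f/f at 20.7, 19.4 and 21.0 CPM. The Klf9 f/f samples lay within the range of the Klf9 +/+ samples, and the log2 fold change was -0.08 (SE 0.17, interval -0.47 to 0.31).

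Etv4 (ENSMUSG00000017724, chromosome 11, 101631056 to 101646685, minus strand) lay at 2.59, 1.84 and 4.12 CPM in Klf9 +/+, and in Klf9 f/f at 2.62, 3.18 and 7.26 CPM. Every Klf9 f/f sample lay above the Klf9 +/+ samples of its own series, by a small margin in series 22, and this separation held for 1 of 10 members, Etv4, against 7.78% of all genes tested. The opposite separation held for 0 of 10 members, against 5.53% of genes. The log2 fold change of Etv4 was 0.53 (SE 0.26, interval -0.07 to 1.13), and it passed the call at 0.72 without Klf9 +/+ replicate 1.

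Etv5 (ENSMUSG00000013089, chromosome 16, 22381382 to 22439792, minus strand) rose in Klf9 f/f by the call used here, a change of at least 1.2-fold with an unadjusted p under 0.05. It lay at 21.3, 17.2 and 27.3 CPM in Klf9 +/+, and in Klf9 f/f at 27.4, 19.2 and 45.2 CPM. The highest sample of each series was Klf9 f/f, but Klf9 f/f replicate 2 lay below Klf9 +/+ replicate 1, so the groups overlapped in series 22. The log2 fold change was 0.43 (SE 0.19, interval 0.01 to 0.85), which is 1.34-fold, with means of 21.9 ± 5.10 and 30.6 ± 13.3 CPM (SD, n = 3 each). Its adjusted p over all genes tested was 1.00 by edgeR's quasi-likelihood F-test and Benjamini-Hochberg adjustment. Etv5 lost the call without Klf9 +/+ replicate 2 at 0.38 and without Klf9 f/f replicate 1 at 0.32. The fits without Klf9 +/+ replicate 3, at 0.27, and without Klf9 f/f replicate 3, at 0.28, also lost it and repeat series 22 alone. Etv5 passed in 5 of 14 alternatives while keeping its sign in 14, and these alternatives are not all separate comparisons. The astrocyte markers were fitted higher in Klf9 f/f in the same samples, and their part in the Etv5 value was not tested.

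**Figure D1:**
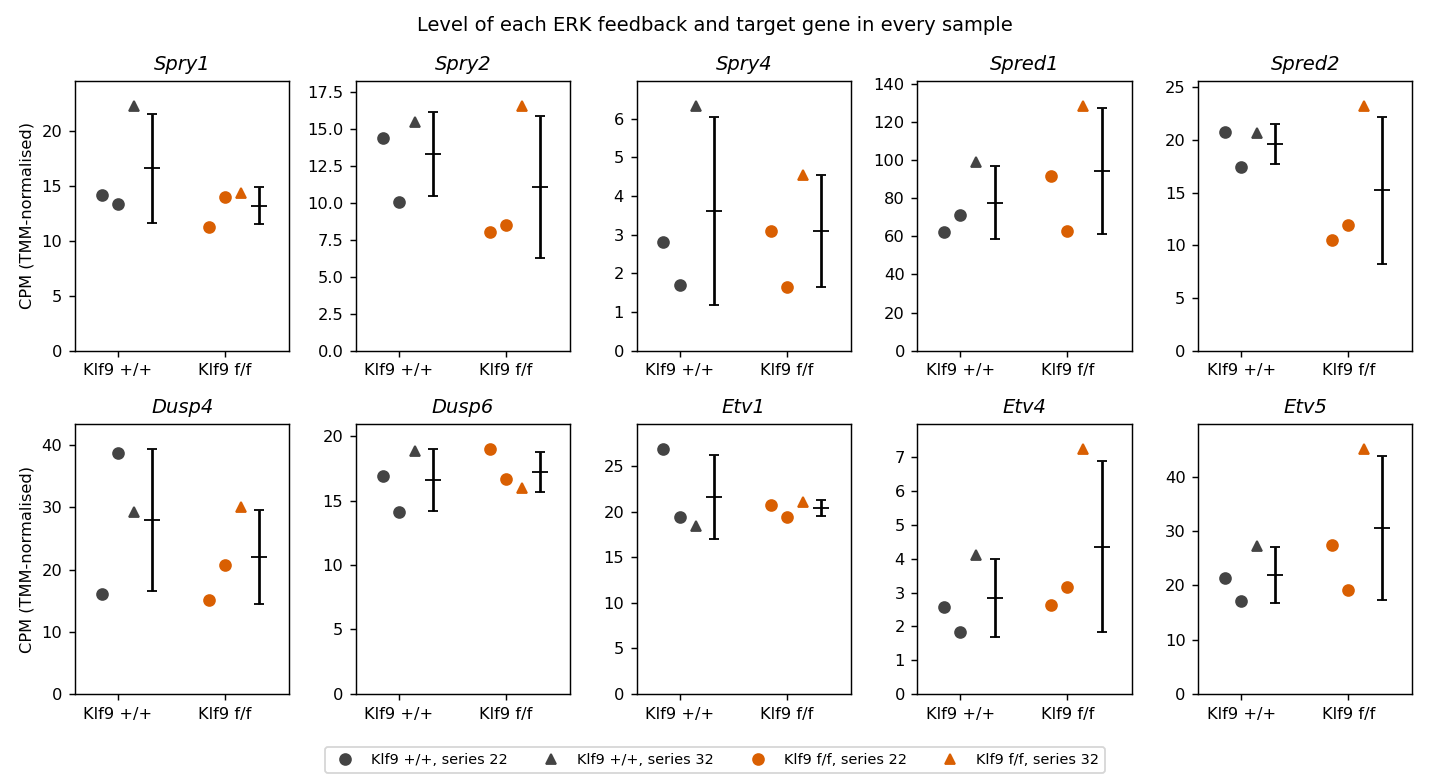
Level of each of the 10 genes in every sample, in CPM after TMM scaling on an axis from 0, with circles for series 22, triangles for series 32, and a bar for the mean and SD of the 3 samples of a genotype. The groups overlap for Etv5, which runs from 17.2 to 27.3 CPM in Klf9 +/+ and from 19.2 to 45.2 CPM in Klf9 f/f, and the Klf9 f/f sample of series 32 is the highest triangle in 7 of the 10 panels.

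Across the 10 genes, 4 were fitted higher and 6 lower in Klf9 f/f, and their median log2 fold change was -0.09, where the median of all genes tested was 0.0008. Called higher was 1 of 10, Etv5, against 1.82% of all genes tested, and called lower were 0 of 10, against 2.50% of all genes. With an adjusted p under 0.05 there were 0 of 10 by edgeR's quasi-likelihood F-test and Benjamini-Hochberg adjustment, where 1 of 10 had an unadjusted p under 0.05, and also 0 of 10 by the likelihood-ratio test and by DESeq2. Over all genes the smallest adjusted p of the quasi-likelihood test was 0.0683. The 3 Sprouty genes were all fitted lower and, of the 3 Etv genes, Etv4 and Etv5 were fitted higher, with the errors given above. The design has 3 residual degrees of freedom. The intervals of Spry1, Spry2, Spry4, Spred2 and Dusp4 reach -0.70 or lower, so that a decrease of that size lies within them. Those of Etv4, Etv5, Spry4 and Spred1 reach up to 1.13, 0.85, 0.65 and 0.63, so that increases of those sizes lie within them too.

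**Figure D2:**
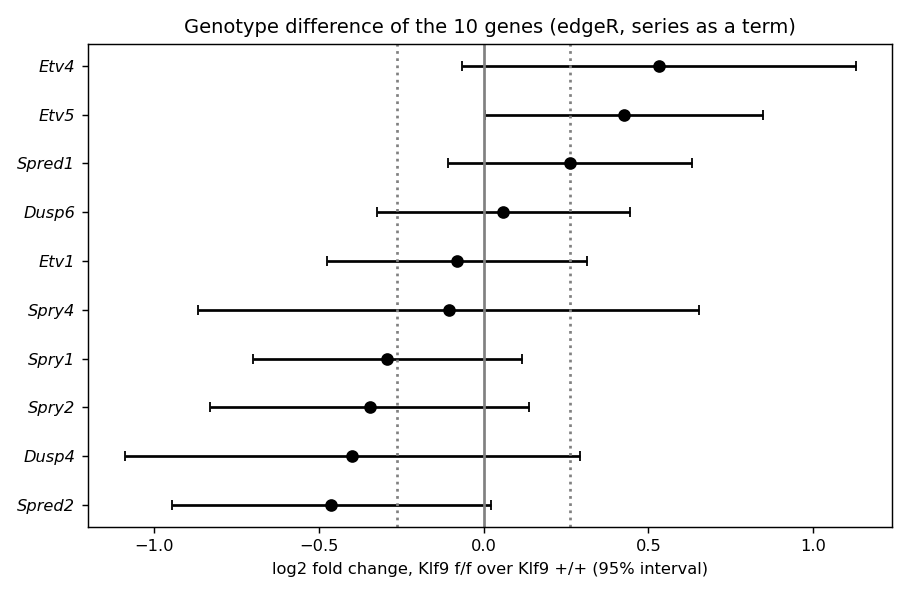
Log2 fold change of Klf9 f/f over Klf9 +/+ for each of the 10 genes with its 95% interval, from the fit with the library series as a term and with dotted lines at a 1.2-fold change. The interval of Etv5, 0.01 to 0.85, is the only one of the 10 that leaves out 0, and that of Spred2, -0.95 to 0.02, comes closest of the others.

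The 10 genes were next read within each series. In series 22, with 2 samples of each genotype, 5 of 10 members were higher in Klf9 f/f, against 7407 of 15056 genes tested. The median log2 difference of the members was -0.04. In series 32, with 1 sample of each genotype and so no spread, 7 of 10 were higher, against 8114 of 15056 genes tested. The median of the members was 0.14. The sign was the same in both series for 4 of 10 members, against 55.4% of all genes tested. These were Spry1, lower by -0.13 and -0.64 in series 22 and 32, and Spred1, Etv4 and Etv5, higher in both. Spred1 differed by 0.18 and 0.37, Etv4 by 0.40 and 0.81, and Etv5 by 0.26 and 0.73 in series 22 and 32.

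Of the other members, Spry2 stood at -0.54 in series 22 and 0.10 in series 32, and Spred2 at -0.77 and 0.17. These were the only members of the 10 whose difference between genotypes in series 22 exceeded the gap between the replicates of both genotypes in that series. How many of all genes tested would do the same was not counted, so this does not set them apart. Dusp4 stood at -0.49 and 0.04, Dusp6 at 0.21 and -0.24, Etv1 at -0.19 and 0.19, and Spry4 at 0.05 and -0.48. A test of the difference between series, the interaction of genotype and series, called 1 of 10 members, Spred2, against 1.53% of all genes. Its interaction was 0.94 on the log2 scale (SE 0.40), with an adjusted p of 1.00 by edgeR's quasi-likelihood F-test and Benjamini-Hochberg adjustment. In DESeq2, which called it too, the interaction was 0.97 on the log2 scale (SE 0.48). The interaction fit has 2 residual degrees of freedom and rests on 1 sample of each genotype in series 32. Summed over the 10 members, CPM was 198, 205 and 262 in Klf9 +/+ replicates 1, 2 and 3 and 209, 178 and 307 in Klf9 f/f, a log2 difference of -0.06 in series 22 and 0.23 in series 32. Spred1 holds the largest share of that sum, as the highest of the 10 in every sample.

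**Figure D3:**
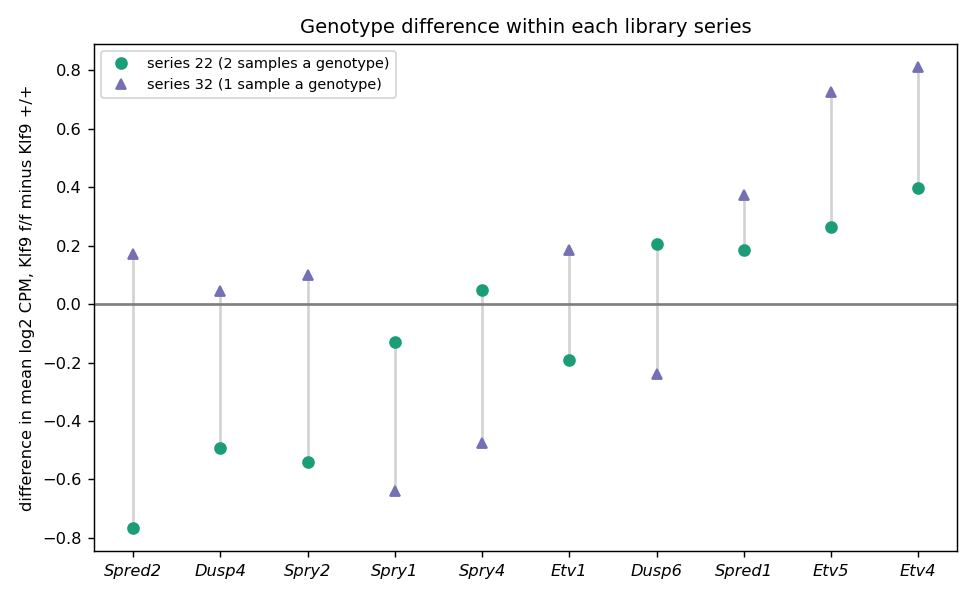
Log2 difference of Klf9 f/f over Klf9 +/+ within library series 22 and within library series 32 for each of the 10 genes, where series 32 has 1 sample of each genotype. Spry1, Spred1, Etv4 and Etv5 keep their sign, and Spred2 moves from -0.77 to 0.17.

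More of the 10 genes were called between the library series than between the genotypes. In the same fit, 7 of 10 members were called higher in series 32, against 20.7% of all genes, and 0 of 10 were called lower, against 22.4%. With an adjusted p under 0.05, 5 of 10 were higher, against 12.9% of all genes, and 0 of 10 lower, against 16.6%, by edgeR's quasi-likelihood F-test and Benjamini-Hochberg adjustment. The adjusted count rested on both samples of series 32, since no member kept an adjusted p under 0.05 when either was left out. Leaving out either leaves a single sample in that series, and over all genes the adjusted calls fell as well. The median log2 difference of the members was 0.63, where that of all genes was 0.03. The 2 lowest genes differed most, Spry4 by 1.23 (SE 0.35, adjusted p = 0.0279) and Etv4 by 1.12 (SE 0.27, adjusted p = 0.0164). Etv5 differed by 0.73 (SE 0.19, adjusted p = 0.0218), Spry2 by 0.68 (SE 0.22, adjusted p = 0.0477) and Spred1 by 0.65 (SE 0.17, adjusted p = 0.0209). Spred2, at 0.60 (SE 0.22), and Spry1, at 0.45 (SE 0.19), passed the call on the unadjusted p but not after adjustment. Dusp4 at 0.43 (SE 0.32), Dusp6 at 0.07 (SE 0.18) and Etv1 at -0.13 (SE 0.19) did not.

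Leaving out a sample of series 32 leaves 1 sample in that series, so calls fall through lost precision as well. The part of lost precision in the fall in calls was not tested. The Klf9 f/f sample of series 32 was the highest of that series for 7 of the 10 genes. Without it 2 of 10 members were called between the series, Spry1 at 0.70 and Spry4 at 1.498, and Spry2 stood at 0.34, Spred1 at 0.57, Spred2 at 0.11, Etv4 at 0.90 and Etv5 at 0.51. Over all genes the calls higher in series 32 also fell, from 3112 of 15056 to 1927 of 15011 without this sample and to 1440 of 14771 without Klf9 +/+ replicate 3. Without Klf9 +/+ replicate 3, Spry1 stood at 0.21 and Spry4 at 0.96, neither called. Without Klf9 f/f replicate 1, Spry1 stood at 0.42 and Spred2 at 0.48, both without a call, and without Klf9 f/f replicate 2, Spred2 stood at 0.56 without a call. Spry1 also lost its call without Klf9 +/+ replicate 1, at 0.43, and without Klf9 +/+ replicate 2, at 0.41. Dusp4 gained a call without Klf9 +/+ replicate 2, at 0.82 (SE 0.18, adjusted p = 0.0175), and stood at 0.09 without Klf9 f/f replicate 3. The samples of series 32 were also the shallower of each genotype and had 25.9% and 26.6% of reads outside the gene counts, where series 22 had 16.4% to 19.1%. Markers of other cell types moved with the series as well, with 13 of 13 choroid plexus genes called higher in series 32 (median log2 difference 2.95), 5 of 11 meningeal genes and 4 of 10 mural genes. The choroid plexus list summed to 111 to 1007 CPM in the samples of series 22 and to 787 and 4185 CPM in those of series 32. The part of depth, of these reads and of these markers in the series difference was not tested.

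Levels were compared between genes per length, as RPKM over the exon length of the gene. Spred1 was the highest of the 10 at a mean of 12.7 RPKM over the 6 samples (range 9.16 to 18.9), above 66.8% of the genes tested. Dusp4 followed at 9.13 RPKM (5.54 to 14.2), Etv5 at 6.41 (4.18 to 11.02), Dusp6 at 6.05 (5.04 to 6.79), Spry2 at 5.85 (3.85 to 7.97), Spry1 at 5.12 (3.86 to 7.67), Spred2 at 3.77 (2.28 to 5.03) and Etv1 at 3.56 (3.13 to 4.57). Etv4, at 1.16 RPKM (0.594 to 2.34), and Spry4, at 0.731 RPKM (0.360 to 1.38), were the lowest, and Spry4 lay above 12.2% of the genes tested. The ranges of neighbours in this order overlapped at each step except that from Etv1 to Etv4, where Etv1 was above Etv4 in 6 of 6 samples. Genes farther apart in the order did separate, since the lowest Spred1 sample was above the highest sample of Dusp6, Spry2, Spry1, Spred2 and Etv1.

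**Figure D4:**
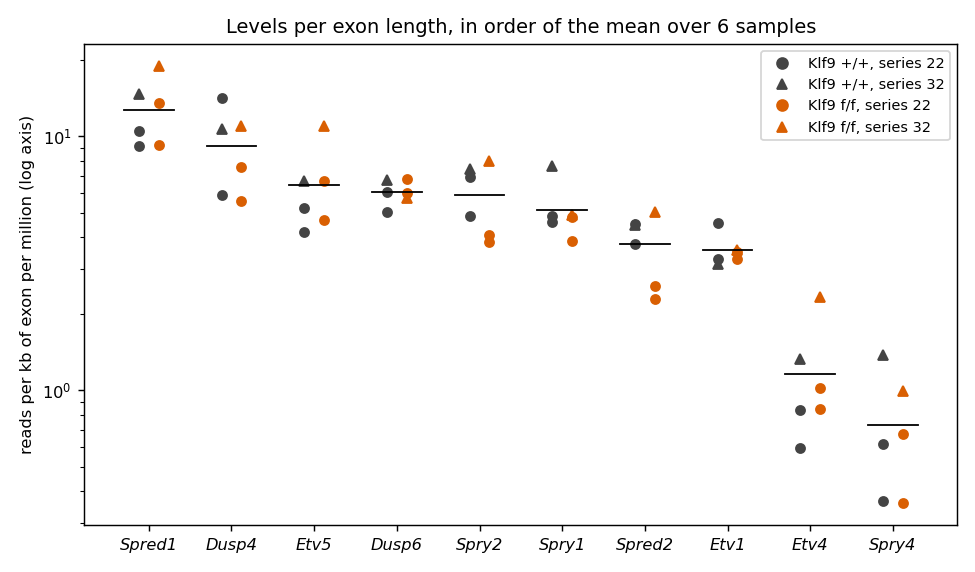
Level of each of the 10 genes in RPKM on a log axis, one point per sample with circles for series 22 and triangles for series 32, ordered by the mean over the 6 samples, which a bar marks. Spred1 is highest at a mean of 12.7 RPKM, and a gap separates Etv1, at 3.56 RPKM, from Etv4 and Spry4, at 1.16 and 0.731 RPKM.

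Between samples the members did not move as 1 group. Each gene's log2 CPM was centred within its series, and Pearson's r was taken over the 6 samples. Both genes of a pair are read from the same libraries, whose depth differed. Of all pairs of members, the highest r were 0.93 for Spry2 and Spred2, 0.85 for Spry2 and Etv1, and 0.79 for Spry4 and Dusp6. The lowest were -0.89 for Spry1 and Etv5, -0.87 for Spry1 and Spred1, and -0.84 for Dusp4 and Dusp6. These pairs were picked as the extremes, and no pair was tested against chance. In the series with 1 sample of each genotype, centring makes the samples mirror images, so fewer than 6 values are free. The opposite variation of Spry1 to Etv5 and Spred1 is therefore a description of 6 pools and does not set these pairs apart. The genes most like the mean of the 10 were Dhcr7, the last enzyme of cholesterol synthesis, at r = 0.995, the heparan sulfate sulfotransferase gene Hs3st4 at 0.992, Pcna, the sliding clamp of DNA replication, at 0.992, and the predicted genes Gm16247 and Gm12286 at 0.992 and 0.991. Over the 6 samples, 170 of 15046 genes had r over 0.9, and these 5 were picked as the highest.

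The rest of the pathway was read from lists by role. For the calls in each list, 1.82% of all genes tested were called higher in Klf9 f/f and 2.50% lower. Of the kinases and adaptors from Grb2 to ERK and its substrates, 27 of 27 were tested, 11 were fitted higher and 16 lower, and 0 were called in either direction, with log2 fold changes from -0.26 to 0.33 and a median of -0.04. Map2k1, which encodes the kinase MEK1, lay at 178 to 233 CPM over the 6 samples. Of 21 other brakes on Ras and ERK, 19 were tested, 9 were higher and 10 lower, and the one called was Rasa3, a GTPase-activating protein, with a list median of -0.07. Rasa3 lay at 101, 93.5 and 145 CPM in Klf9 +/+, and in Klf9 f/f at 151, 101 and 196 CPM, above within each series, and rose by 0.39 on the log2 scale (SE 0.16). It kept the call without Klf9 f/f replicate 2 and lost it without each of the other samples, at 0.22 to 0.43.

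Of 23 other ERK targets, 20 were tested, 9 were higher and 11 lower, with a median of -0.02, and the one called was Ier3. Ier3 (ENSMUSG00000003541, mm9 chromosome 17, 35958629 to 35959868) encodes an immediate early protein that is a substrate of ERK. It lay at 18.9, 19.3 and 18.0 CPM in Klf9 +/+, and in Klf9 f/f at 9.23, 8.00 and 9.71 CPM. The groups were far apart and each was narrow, with means of 18.7 ± 0.633 and 8.98 ± 0.879 CPM (SD, n = 3 samples each). Ier3 fell by 1.06 on the log2 scale (SE 0.16, interval -1.43 to -0.70), by -1.15 within series 22 and -0.89 within series 32. Its adjusted p was 0.208 by edgeR's quasi-likelihood F-test and Benjamini-Hochberg adjustment, 0.000199 by the likelihood-ratio test, 6.1e-06 by DESeq2, and up to 1.00 over all alternatives. By unadjusted p it ranked 6 of 15056 genes, and it passed the call in 14 of 14 alternatives, at -1.15 to -0.98. Endothelial, mural, meningeal and choroid plexus markers were lower in Klf9 f/f as well, and their part in the Ier3 value was not tested. In the same list Epha4, a guidance receptor, lay at 125 to 305 CPM, and Mcl1, a survival factor of the Bcl2 family, at 116 to 140 CPM.

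Upstream, 17 of 18 receptor tyrosine kinases were tested, 7 were higher and 10 lower, with a median of -0.05. Of these, 3 were called up, against 1.82% of all genes, and 1 down, against 2.50%. The 3 called up, Egfr, Fgfr3 and Ntrk2, are among the upregulated genes that the authors named from these same data, so their calls are not independent of that report. The authors also reported higher Egfr, and lower Klf9, by qRT-PCR on a separate replicate of the isolated mRNA. Egfr lay at 41.0, 36.1 and 32.9 CPM in Klf9 +/+, and in Klf9 f/f at 52.9, 39.4 and 51.4 CPM, and rose by 0.39 (SE 0.16). Fgfr3, an astroglial FGF receptor, lay at 175, 147 and 251 CPM and at 235, 165 and 377 CPM, and rose by 0.41 (SE 0.17). Ntrk2, the receptor of BDNF, lay at 961, 818 and 798 CPM and at 1197, 968 and 1195 CPM, and rose by 0.38 (SE 0.16). The highest sample of each of these receptors was a Klf9 f/f sample, next to astrocyte markers that were fitted higher too, and the part of those markers was not tested. Without each of Klf9 +/+ replicates 2 and 3 and Klf9 f/f replicates 1 and 3, all 3 receptors lost the call, Egfr at 0.26 to 0.37, Fgfr3 at 0.28 to 0.36 and Ntrk2 at 0.28 to 0.34. Flt1, a VEGF receptor of endothelium, lay at 59.5, 24.5 and 39.4 CPM and at 34.0, 10.1 and 13.9 CPM, and fell by 1.11 (SE 0.44). Flt1 is itself on the list of endothelial markers, of which 15 of 15 were lower. It lost the call without Klf9 +/+ replicates 1 or 3 or Klf9 f/f replicates 2 or 3, at -0.93 to -0.73, and also without the series term at -1.08, with DESeq2 at -1.14 and in series 22 alone at -0.93. Egfr, Fgfr3, Ntrk2 and Rasa3 lost theirs without the series term, with glmTreat, a test against a 1.2-fold change, and in series 22 alone. The fits without either replicate 3 repeat series 22 alone and are not separate losses.

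Of 23 mitogen ligands, 18 were tested, 7 were higher and 11 lower, and the one called was Igf1, with a median of -0.11. Igf1 lay at 6.59, 5.44 and 8.79 CPM in Klf9 +/+, and in Klf9 f/f at 4.82, 3.58 and 3.92 CPM, below within each series, and fell by 0.72 (SE 0.25). It lost the call without Klf9 +/+ replicate 3 or Klf9 f/f replicates 2 or 3, at -0.66 to -0.52. It also lost the call in series 22 alone at -0.52, which the fits without either replicate 3 repeat. The highest ligand genes were Igf2, at 137 to 342 CPM, and Fgf1, at up to 48.8 CPM. The adjusted p of Rasa3, Egfr, Fgfr3, Ntrk2, Flt1 and Igf1 was 1.00 by edgeR's quasi-likelihood F-test and Benjamini-Hochberg adjustment. The highest of the other brakes was Pebp1, an inhibitor of Raf.

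**Figure D5:**
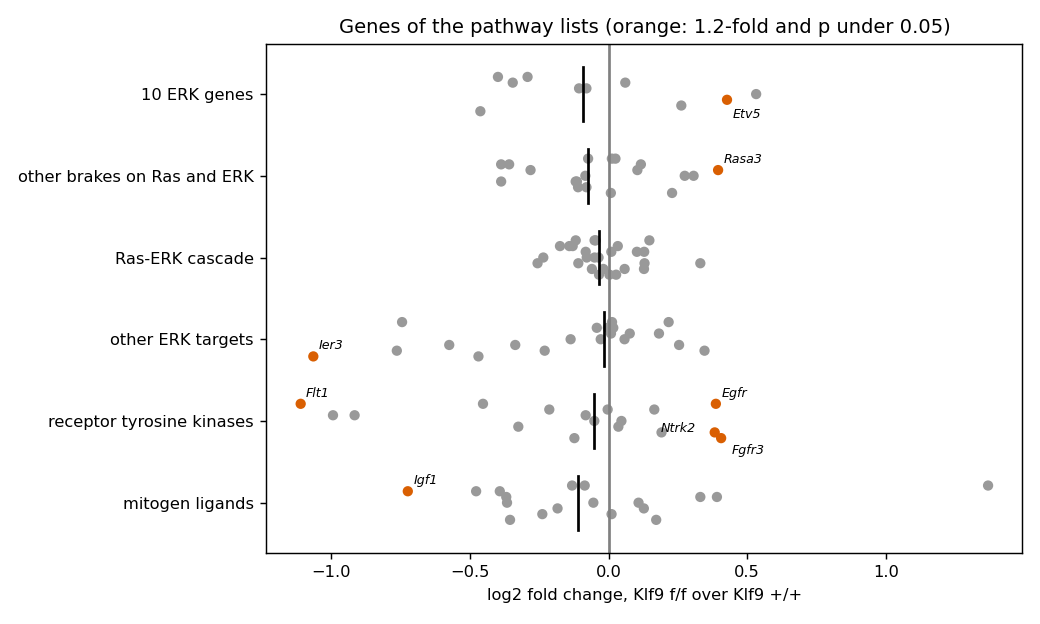
Log2 fold change of Klf9 f/f over Klf9 +/+ for every tested gene of the 10 members and the 5 pathway lists, with a bar at the median of each list and the called genes in orange. The medians lie between -0.11 and -0.02, the 27 genes of the cascade stay between -0.26 and 0.33, and Ier3 and Flt1 lie at -1.06 and -1.11.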

How the data were processed

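Ribosome-bound mRNA was sequenced from 3 Klf9 +/+ and 3 Klf9 f/f samples. The authors mapped the reads to mm9 with STAR, counted reads on genes with HTSeq ignoring strand, and deposited whole-number counts without normalization. HTSeq's 5 summary lines, 16.4% to 26.6% of reads, were left out. Symbols came from the GENCODE annotation of the same build, which named 37205 of 37620 genes and matched 224 of 225 listed genes. The span of no other annotated gene overlapped a member.

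Genes that exceeded 1 CPM in 1 or more samples were scaled by TMM, and tested with the quasi-likelihood F-test of edgeR 4.0.16 (R 4.3.3), with the library series as a term. Calls required 1.2-fold and an unadjusted p under 0.05, and adjusted p-values followed Benjamini and Hochberg over all 15056 genes. The SE is the log2 fold change divided by the square root of F, and intervals use the t distribution. Differences within a series are of mean log2 CPM with a prior count of 2. Alternatives were no series term, DESeq2 1.42.0, the likelihood-ratio test, upper-quartile scaling, other filters, a test against 1.2-fold (glmTreat), series 22 alone, and each sample left out. The tests were first tested on simulated data. With no genotype difference simulated, the quasi-likelihood test called 790 of 14845 genes, and 0 after adjustment. The real data gave 274 calls higher and 376 lower of 15056. Simulated log2 changes of 0.5 and 1 were recovered at the call in 56.1% and 92.3% of changed genes.

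Named were all members, the called genes of the pathway lists, the 2 highest genes of each list, Klf9, 3 receptors (Egfr, Fgfr3 and Ntrk2), and the 5 genes most like the members' mean. One gene that this rule names is not reported here. The members and lists were chosen with earlier results of these data known. Replicate numbers were given in accession order and pair no samples.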

Additional observations from a re-analysis of the deposited data

How the results depend on the processing

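Of 14 alternatives to the reported fit, Spry1, Spry2, Spred1, Spred2, Etv4 and Etv5 kept the direction of their genotype difference in 14, and Dusp4, Etv1, Dusp6 and Spry4 in 13, 13, 12 and 9. The fits without either sample of series 32 repeat the genotype comparison of series 22 alone, so the 14 are not all separate comparisons. The number of members called between genotypes was 1 in the reported fit, 0 without the series term, 0 with DESeq2, 0 with upper-quartile scaling and 0 with glmTreat, and 3 with no filter beyond 1 count (Spred2 and Dusp4 lower, Etv5 higher). With each sample left out it ran from 0 to 3, with 3 without Klf9 +/+ replicate 1 and 0 without Klf9 +/+ replicate 2 or Klf9 f/f replicate 1. Between the library series the count ran from 2, without Klf9 f/f replicate 3, to 7. Spry4 reversed to 0.075 in series 22 alone. With a sample left out, the genotype difference ran from -0.46 to 0.081 for Spry4, -0.64 to 0.11 for Dusp4, -0.057 to 0.21 for Dusp6 and -0.21 to 0.10 for Etv1, and the series difference from -0.13 to 0.29 for Dusp6 and -0.33 to 0.095 for Etv1. Etv5 missed the call at 0.48 without the series term, 0.42 with DESeq2 and upper-quartile scaling, 0.43 with glmTreat, and 0.27 in series 22 alone. Over all genes, 274 were called higher and 376 lower, but 50 and 163 without the series term, which moved the share called higher from 42.2% to 23.5%, and 513 and 926 with no filter. The cause of these changes was not tested. Series 32, with a single sample per genotype, gives no estimate of spread. No paired analysis was possible because the labels give no replicate numbers that tie a Klf9 f/f sample to a Klf9 +/+ sample.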
